A study of Mus musculus and Rattus norvegicus with 26 samples.

Results

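Genes listed with intronic sequence for the dendrites of both mouse and rat hippocampal neurons, and for the cell bodies of neither, are described here. Beside them stands their counterpart, the genes listed in the somas of both species and in the dendrites of neither. Intronic contigs, short stretches of intron covered by uniquely mapped reads of amplified poly(A) RNA, had been collected in 1 pooled list for each of 6 conditions. Genes were matched by symbol, with all contigs kept, and 583 genes met the rule for dendrites, out of 13695 symbols in any of the 6 lists. The rule for somas was met by 110 genes. Both sets were chosen by presence in the 4 neuronal lists, so these numbers, and the reads behind them, are descriptions and carry no test. The dendrite-only genes made up 21.1% of the 2763 genes of both dendrite lists and 15.2% of the 3827 genes with a neuronal list in both species. The soma-only genes made up 6.2% of the 1775 genes of both soma lists and 2.87% of the 3827.

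The neurons came from embryonic day 18 hippocampi of C57BL/6 mice and Sprague-Dawley rats and were grown in primary culture. Their dendrites were cut free by hand, many to a library (3 mouse and 2 rat libraries), and single somas, which hold the nucleus, were harvested in the same way (3 libraries in each species). The non-neuronal lists came from cells of the interscapular brown adipose tissue (BAT) of CD-1 mice at embryonic day 17.5 (6 libraries by the labels) and from cardiomyocytes of transgenic C57BL/6 embryos at day 14.5 that were hemizygous for a Fucci cell cycle reporter (9 libraries by the labels). RNA of all groups was put through 3 rounds of linear (aRNA) amplification, which copies RNA from a primer of thymines joined to a T7 promoter. The libraries of a condition are joined in its list, so no value per library and no spread between libraries can be given, and for both non-neuronal cell types the paper counts fewer cells than there are labelled libraries. Intervals below are 95% intervals (Wilson for shares, Newcombe for differences of shares) and cover counting error only, since genes and PCR reads are not independent replicates.

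Introns are normally cut out of a transcript in the nucleus before the mRNA is exported. Transcripts that keep part of an intron in the cytoplasm are known as cytoplasmic intron-sequence retaining transcripts (CIRTs), and in dendrites, which have no nucleus, an intronic read cannot stem from RNA of the same cell's nucleus as long as the cut was clean. Dendrites are known to receive a selected set of mRNAs that can be translated near synapses. A poly(T) primer can also start on a run of adenines inside a transcript, so the sequence beside a contig belongs to what is known about it.

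The sequence at the 3' end of mouse dendrite contigs is shown for 8 dendrite-only genes in which such an adenine run followed the contig closely. They were taken from the named genes with a run of at least 10 adenines within 300 nt downstream. Not every such stretch is shown: in Atp6v1c1 intron 5 a run of 29 adenines began 7 nt after the contig. Each line is on the gene's strand, 5' to 3', in NCBIM37 (mm9), starts with the last 40 bases of the contig and ends 5 bases after the run, and capitals mark the run of adenines.
Stard13 intron 1: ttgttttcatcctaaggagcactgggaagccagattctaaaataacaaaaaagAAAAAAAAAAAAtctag
Sipa1l3 intron 16: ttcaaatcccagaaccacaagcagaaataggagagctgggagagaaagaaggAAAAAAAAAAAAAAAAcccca
Antxr1 intron 12: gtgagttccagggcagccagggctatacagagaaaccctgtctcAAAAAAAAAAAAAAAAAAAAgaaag
Kcnh1 intron 7: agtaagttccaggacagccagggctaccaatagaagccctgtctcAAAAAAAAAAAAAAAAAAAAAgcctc
Fxr2 intron 2: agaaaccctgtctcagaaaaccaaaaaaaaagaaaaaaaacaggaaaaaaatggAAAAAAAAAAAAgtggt
Sema3a intron 12: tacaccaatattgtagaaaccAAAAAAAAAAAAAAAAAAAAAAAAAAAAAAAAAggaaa
Rab1 intron 2: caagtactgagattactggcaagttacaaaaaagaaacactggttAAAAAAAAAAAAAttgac
Casc5 intron 12: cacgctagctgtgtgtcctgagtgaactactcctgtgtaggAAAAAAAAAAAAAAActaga
These stretches lie at chr5:151914325-151914394 on the minus strand (Stard13), chr7:30131501-30131573 on the minus strand (Sipa1l3), chr6:87183735-87183803 on the minus strand (Antxr1) and chr1:194220679-194220749 on the plus strand (Kcnh1). The others lie at chr11:69453586-69453656 on the plus strand (Fxr2), chr5:13575503-13575561 on the plus strand (Sema3a), chr11:20117260-20117322 on the plus strand (Rab1) and chr2:118912157-118912217 on the plus strand (Casc5). All 8 are intronic in the listed transcript, and none of the 8 contigs overlapped an annotated exon. The run began 13 nt after the contig in Stard13, whose intron 1 had 1099 reads, and 4 nt after it in Antxr1, whose intron 12 had 649 reads. In Sema3a the contig itself ended inside a run of 33 adenines, in an intron with 18 reads.

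Such a run followed 107 of the 1212 mouse dendrite contigs of the dendrite-only genes, or 8.83% (7.36 to 10.6). Among the other genes of both dendrite lists it followed 696 of 8881, or 7.84% (7.3 to 8.41), and the difference of 0.991 percentage points had an interval from -0.588 to 2.8. With runs of at least 12 adenines the shares were 7.1% and 5.49%, and the difference of 1.6 points had an interval from 0.197 to 3.25, above 0. On the upstream side 3.63% of the contigs of dendrite-only genes had one (2.72 to 4.84). Among the other genes 2.96% of contigs had an adenine run upstream (2.63 to 3.33). Runs of thymines stood upstream of 12.6% and downstream of 4.04% of the contigs of dendrite-only genes, beside 12.5% and 4.66% for the other genes. Which of these runs served as priming sites was not tested. Contigs of the soma-only genes in the mouse soma list were followed by a run in 28 of 158 cases, or 17.7% (12.6 to 24.4). The other genes of that list had one after 2370 of 12765 contigs, or 18.6% (17.9 to 19.3), and the difference of -0.845 points had an interval from -6.06 to 5.89. The letters CCCTGTCTC, which close the consensus of the mouse B1 repeat and precede the run in the Antxr1, Kcnh1 and Fxr2 stretches above, were searched on the gene's strand in the 60 nt before the run after these lines had been read. They stood before 22 of the 107 runs of the dendrite-only genes (20.6%, 14 to 29.2) and before 90 of the 696 runs of the other genes (12.9%, 10.6 to 15.6). The 22 include the Antxr1, Kcnh1 and Fxr2 stretches in which the letters were first seen, so the 2 shares carry no comparison. Before runs upstream of a contig the letters stood in 11.4% (4.95 to 24) and 7.6% (4.98 to 11.5). In the 300 nt downstream of any contig they were found for 1.82% and 1.8% of contigs.

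The size of the sets was compared with what the list sizes alone give. Within the 3827 genes listed for neurons of both species, 1194 were in the mouse dendrite list and not in the mouse soma list (31.2%), and 1441 were in the rat dendrite list and not in the rat soma list (37.7%). The product of these shares is 449.6 genes, and 583 were counted, 1.30 times as many. For the somas, shares of 10.5% in mouse and 20.2% in rat give 81.1 genes, and 110 were counted, 1.36 times as many. The pairings of dendrite with soma lay close to their products, with 237 genes found in dendrites of mouse and somas of rat (product 240.9) and 142 genes with the opposite placement (product 151.4). Of the pairings with genes found in both compartments, 4 lay below their products and 1 above: 374 genes were dendrite-only in mouse and in both compartments in rat (product 503.6), 716 the reverse (product 840.0), 425 were in both compartments in mouse and soma-only in rat (product 450.0), 150 the reverse (product 169.5), and 1090 were in both compartments of both species (product 940.9). Of the mouse dendrite class 48.8% were in the same class in rat, and of the rat dendrite class 40.5% were in the same class in mouse. The direction depended on the reference: over the 11648 symbols in any neuronal list the product was 770.1, and over all 13695 symbols 655.0, so that 583 was 0.76 and 0.89 times the product. For the soma-only genes these references gave 121.8 and 103.6, or 0.90 and 1.06 times. The wider references include symbols that were listed in 1 species alone. The dendrite lists were also longer than the soma lists, with 8607 against 5895 genes in mouse and 4485 against 3393 in rat, and the part of list length in the size of the sets was not tested.

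**Figure D1:**
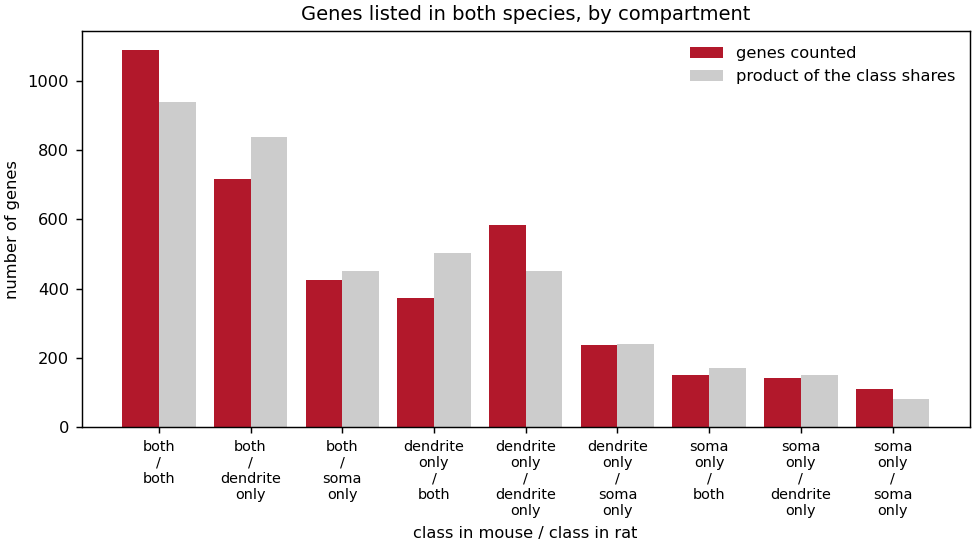
Number of genes (vertical axis) in each pairing of a mouse class with a rat class, for the 3827 genes with a neuronal list in both species; red bars are the counted genes and grey bars the product of the 2 class shares. The dendrite-only pairing stands at 583 against 449.6 and the soma-only pairing at 110 against 81.1, while the crossed pairings of dendrite with soma differ from their products by fewer than 10 genes.

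The dendrite-only genes were thinly read. The median gene had 46 intronic reads in the mouse dendrite list (quartiles 8 and 188, range 2 to 9656) and 24 in the rat dendrite list (quartiles 4 and 108, range 1 to 25042), counting each intron once and each gene by its transcript with the most reads. The other genes of both dendrite lists had medians of 132 in mouse and 50 in rat. Within the transcript with the most reads, a single listed intron carried all reads in 56.4% of the dendrite-only genes in mouse and in 73.8% in rat. The other genes stood at 35.1% and 52%. The soma-only genes were also thinly read, with medians of 26.5 reads in mouse and 36 in rat somas and a single listed intron in 74.5% and 75.5%. In this pooled dendrite material, fewer contributing dendrites and less RNA per dendrite cannot be told apart. Few reads and few introns thus went with membership: of the genes with 1 to 3 reads in their thinner dendrite list 32% were dendrite-only, of those with 4 to 15 reads 23.8%, with 16 to 63 reads 19.8%, and with 64 or more reads 11.8%. The level in mouse said little about that in rat, with a Spearman rank correlation across the 583 genes of 0.02, beside 0.09 across the 2180 other genes. Both species' reads come from different amplifications, and the value is a description.

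**Figure D2:**
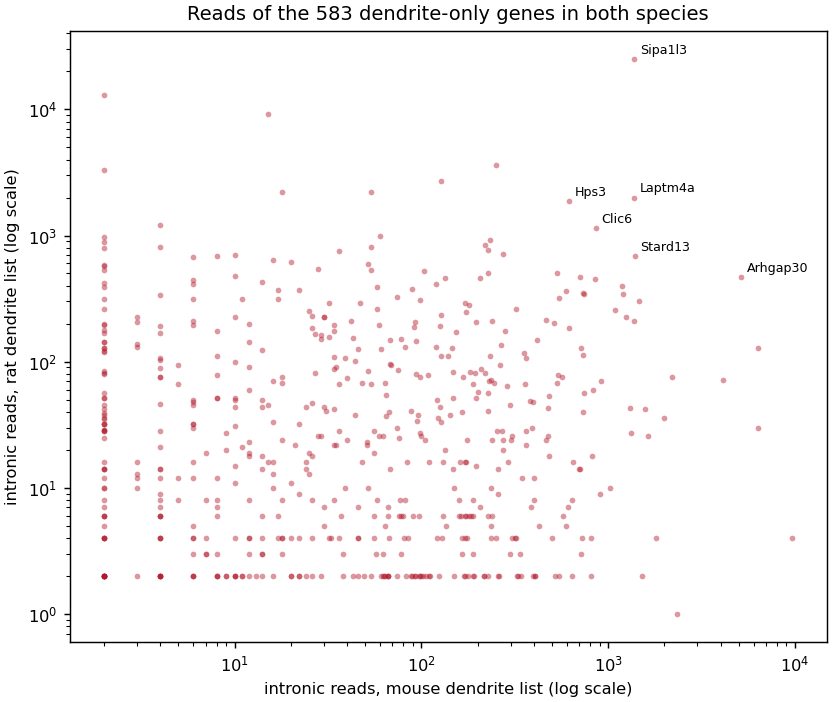
Intronic reads of each of the 583 dendrite-only genes in the mouse dendrite list (horizontal, log scale) and the rat dendrite list (vertical, log scale), 1 point per gene, with 6 of the 12 best-read genes labelled. Many points lie on the lowest read numbers of an axis, and few lie at the upper right, where Sipa1l3 has 1380 reads in mouse and 25042 in rat.

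At the upper end, 90 of the 583 genes had at least 64 reads in both dendrite lists and 18 had at least 256. Sipa1l3, of a family of GTPase-activating proteins for the small GTPase Rap, had 1380 reads over 5 introns in mouse and 25042 reads in rat, where a single contig in intron 4 (chr1:84469739-84470734, rn4, minus strand) held them all. Other regulators of small GTPases were Stard13, a GTPase-activating protein with a lipid-binding START domain (1387 reads in mouse, 688 in rat), and Arhgap30, another GTPase-activating protein (5138 and 468). These genes were well read in both species, with the balance between the species differing from gene to gene. Endosomal and lysosomal genes included Laptm4a, a lysosomal membrane protein (1375 and 1997 reads), Hps3, a subunit of a complex for lysosome-related organelles (620 and 1872), and Zfyve26, which encodes the FYVE-domain protein spastizin (854 and 454). Clic6, of the chloride intracellular channel family, had 863 reads in mouse and 1140 in rat, and Asrgl1, an asparaginase-like enzyme, 535 and 508. Sema3a, a secreted semaphorin that steers axons and dendrites, had 709 reads over 5 introns in mouse and 466 in a single intron, number 15, in rat. The remaining genes of the best-read 12 were Rad50, of the complex that holds broken DNA ends (1192 and 398), Col9a1, a cartilage collagen (594 and 360), and Kpna1, an importin of nuclear import (736 and 353).

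Several genes were listed through many introns in both species. Rad50 had 5 introns in mouse and 8 in rat, 3 of them with the same number (16, 17 and 20). Antxr1, a receptor of the cell surface that anthrax toxin uses, had 4 introns in each species, of which introns 1, 3 and 17 agreed, and Kif23, a mitotic kinesin, had 3 in each, of which intron 6 agreed. Casc5, a kinetochore scaffold, and Nup153, a nuclear pore protein, each had 4 introns in both species and no number in common. Zfyve26 had 6 and 3 introns with number 3 in common, and Rps6ka6, a ribosomal S6 kinase, had 5 and 4.

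An intron of the same number was listed in both species for 218 of the 583 dendrite-only genes, or 37.4% (33.6 to 41.4). The rule used symbols and not intron numbers, so this share is open to comparison. It was 45.2% (43.2 to 47.3) for the other genes of both dendrite lists, which had more listed introns, and the difference of -7.84 points had an interval from -12.2 to -3.33. Among genes with 1 listed intron in each species, 74 of 256 dendrite-only genes (28.9%, 23.7 to 34.7) and 115 of 458 other genes (25.1%, 21.4 to 29.3) had the same number, a difference of 3.8 points (-2.87 to 10.7). For the soma-only genes with 1 intron in each soma list the share was 12 of 65 (18.5%, 10.9 to 29.6), 10.4 points below the dendrite-only genes with an interval from -1.81 to 20. Once the number of introns was held at 1, none of these sets differed from the dendrite-only genes beyond counting error. Intron numbers can shift between a mouse and a rat transcript model, and a neighbouring number was listed for another 54 of the 256 genes (21.1%). It was listed for 86 of the 458 other genes (18.8%) and for 17 of the 65 soma-only genes (26.2%).

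In Asrgl1 intron 2 held 535 reads in mouse (chr19:9202134-9204034, mm9, minus strand) and 508 in rat (chr1:211802184-211803394, rn4, minus strand), with no other intron listed in either. Intron 3 of Slc38a4, an amino acid transporter, had 217 reads in mouse and 837 in rat, and intron 1 of Pppde2, a peptidase of the PPPDE family, had 197 and 208. Intron 2 of Gabrr3, a subunit of GABA receptors, had 257 and 148 reads. Intron 2 of Tmem178 held 6309 reads in mouse and 128 in rat. Intron 16 of Rad50 had 294 and 151 reads, intron 3 of Tmem188 had 168 and 293, and intron 1 of Tsnaxip1 had 266 and 176. These 8 genes had the most reads, in the thinner species, in an intron of the same number.

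By function, the 583 genes were compared with all 2763 genes of both dendrite lists, of which 21.1% were dendrite-only. Groups were defined by symbol families or short gene lists, with earlier results of these data known, and together 25 groups held 174 of the 583 genes (29.8%) and 975 of the 2763 (35.3%). Groups of dendritic and synaptic function had low counts, on few genes each. None of the 10 known dendritic mRNAs in both dendrite lists was dendrite-only, nor any of 14 synaptic and membrane scaffolds, which allows shares of up to 27.8% and 21.5% by the Wilson interval. Of 17 synaptic receptors 2 were dendrite-only, Gabrr3 and Grin3b, a subunit of NMDA receptors with 322 reads in mouse and 4 in rat. Fxr2, a relative of the fragile X protein that binds mRNA, was the 1 dendrite-only gene of 9 translation repressors, with 98 and 76 reads. Sema3a was the 1 of 16 axon guidance genes. Cell adhesion families held 1 of 32 (3.12%, 0.554 to 15.7), and that gene, Lrrc41, met the symbol pattern by its name and is not known for adhesion. Chromatin modifiers held 3 of 42 (7.14%, 2.46 to 19), Brd1, Brd9 and Arid3b, and RNA-binding and splicing factors 5 of 50 (10%, 4.35 to 21.4). The intervals of cell adhesion and chromatin modifiers lay below 21.1%, and those of the dendritic mRNAs, scaffolds, receptors and translation repressors included it. The symbol patterns missed dendrite-only genes known for adhesion, such as Fat2 (512 and 204 reads), Alcam and Sdk2, and for chromatin, such as Prmt1 and Prdm9. How many of the other genes they missed was not counted, so these shares describe the patterns and not the functions.

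At the other end, DNA repair and replication had the largest share among the 25 groups, 15 of 43 genes (34.9%, 22.4 to 49.8). Beside Rad50 they included Rad18, a ubiquitin ligase at stalled replication forks (180 reads in mouse, 279 in rat), Pole, the catalytic subunit of DNA polymerase epsilon (75 and 86), and Fancc of the Fanconi anaemia core complex (200 and 58). Solute carriers followed with 21 of 73 (28.8%, 19.7 to 40), among them Slc38a4, Slc12a1, the sodium-potassium-chloride cotransporter known from kidney (356 and 118), and Slc7a11, a cystine and glutamate exchanger (232 and 111). Small GTPases had 7 of 25 (28%), including the traffic GTPases Rab8b (206 and 463), Arf4 (25 and 250) and Rab1 (51 and 23). Zinc finger transcription factors had 7 of 26 (26.9%), including Zfp384 (28 and 542), and motor proteins 8 of 30 (26.7%), with the myosins Myo7b (142 and 38) and Myo1f (195 and 15) beside Kif23. Apart from DNA repair, these shares had intervals that included 21.1%. The 25 groups were read side by side with no correction.

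The remaining groups had shares between 12.2% and 23.7%, with intervals that included 21.1%. ATPases had 9 of 38 dendrite-only genes (23.7%), among them Atp6v1c1 of the vacuolar proton pump (54 and 67 reads) and Atp1b3, a subunit of the sodium pump (30 and 226). Wnt, TGF-beta, Notch and receptor kinase signalling had 6 of 27 (22.2%), with the receptor Tgfbr1 at 138 and 110 reads. Cyclic nucleotide signalling had 6 of 30 (20%), with Gucy1b3, a subunit of soluble guanylate cyclase, at 31 and 41. Ion channels had 7 of 39 (17.9%), including Kcnh1, a voltage-gated potassium channel (275 and 715), Ano1, a calcium-activated chloride channel (126 and 44), and Scn7a of the sodium channel family, which was listed through 8 introns in mouse and 1 in rat (227 and 41). GTPase regulators also had 7 of 39. Protein kinases held 13 of 69 (18.8%), with Pip5k1a at 322 and 263 and Pik3c3 at 46 and 126, and vesicle traffic 13 of 70 (18.6%), with the sorting nexin Snx1 at 831 and 60. Shares were 17% for centrosome and cilium genes, 16.2% for ribosomal proteins and translation factors, 14.8% for ubiquitin ligases and deubiquitinases, 13.1% for mitochondrial genes and 12.2% for phosphatases. The symbol patterns also took in genes known for other functions, which weighs on the small counts, for example Rps6ka6, a kinase, counted among the ribosomal proteins and translation factors, Ccdc80, a secreted protein, among the centrosome and cilium genes, Egflam, a matrix protein, among the signalling genes, Prkaa2, a subunit of the AMP-activated kinase, among cyclic nucleotide signalling, Plekha7, a junction protein, among the GTPase regulators, and Pip5k1a and Pik3c3, which phosphorylate lipids, among the protein kinases. A further pair of families, collected after the members had been seen, held many of them: 14 of 24 immune surface and cytokine genes, among them Il17f, a cytokine (218 and 81), and Irak2, a kinase of interleukin receptors (189 and 66), and 14 of 26 genes of the extracellular matrix, among them Col9a1, Col1a2, a chain of type I collagen (47 and 291), and Ltbp1 (44 and 102). These counts come from a choice made on the members and carry no comparison.

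**Figure D3:**
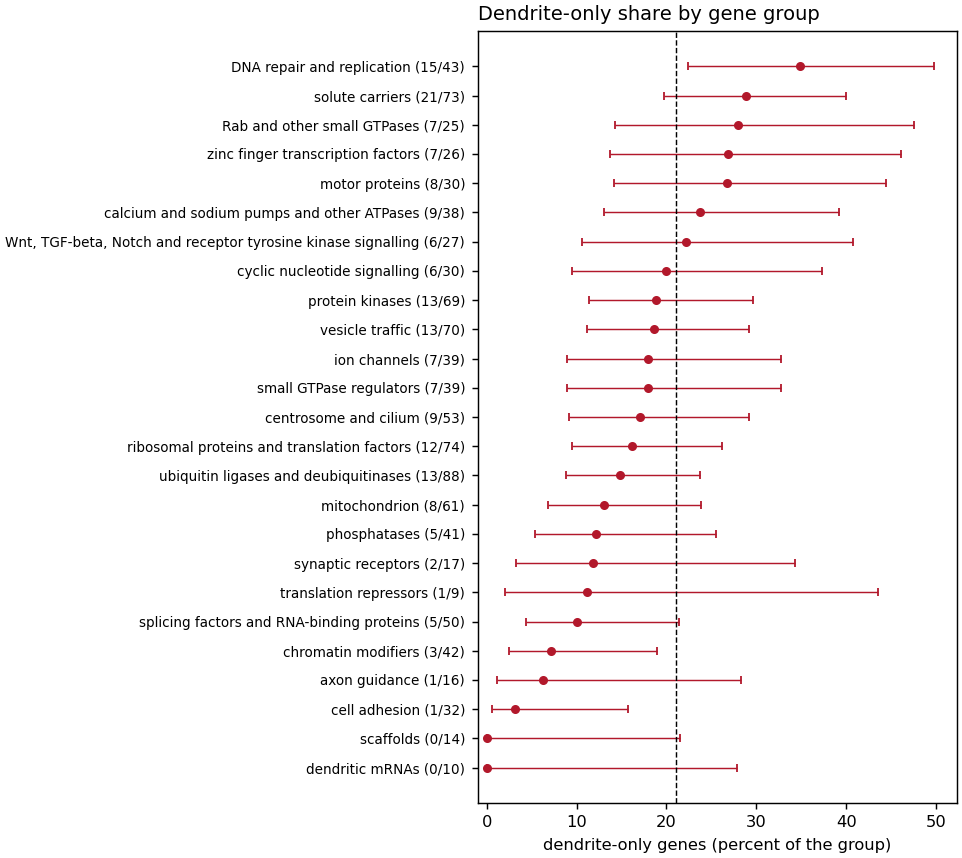
For each of 25 gene groups, the percent of its genes in both dendrite lists that were dendrite-only (points, horizontal axis) with 95% Wilson intervals (bars), and the number of dendrite-only genes over all in brackets; the dashed line marks the 21.1% of all 2763 genes. DNA repair and replication is highest at 34.9%, and scaffolds and dendritic mRNAs are at 0.

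The best-read of the 110 soma-only genes in the thinner species was Vps72, a subunit of chromatin remodelling complexes, with 995 reads in mouse somas and 1484 in rat somas, mostly in intron 3 in both. Cdc42bpb, a kinase that acts with the GTPase Cdc42, had 620 and 2509 reads, Coq9, needed for coenzyme Q synthesis, 604 and 1045, Exoc3l, related to an exocyst subunit, 336 and 393, and Bloc1s2, of a complex for lysosome-related organelles, 359 and 330. Beside the 6.2% of all genes of both soma lists, 3 of 15 small GTPases, 3 of 20 cyclic nucleotide signalling genes, 5 of 52 protein kinases, 4 of 43 solute carriers, 5 of 55 mitochondrial genes and 5 of 62 ubiquitin enzymes were soma-only. In 8 of the 25 groups, of 6 to 37 genes each, none was: dendritic mRNAs, synaptic receptors, translation repressors, phosphatases, motor proteins, cell adhesion, axon guidance and zinc finger transcription factors. The upper limits of their intervals ran from 9.41% to 39%, so all 8 included 6.2%. For the small GTPases, as taken by their symbols, the share of 20% had an interval from 7.05 to 45.2, which lay above 6.2%. The soma-only symbols of this kind were Arf5, Rac1 and Arl2bp, the last named for a protein that binds a small GTPase. That interval therefore rests on a small count with a gene that is not itself a GTPase. The cyclic nucleotide signalling genes, at 15% (5.24 to 36), and the other groups with a soma-only gene had intervals that included 6.2%. No correction was made over the 25 groups.

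The lists of BAT cells and cardiomyocytes took no part in the rule, but they are lists of whole cells, and by the rule each of the other genes of both dendrite lists was in a whole-cell (soma) list of at least 1 species and each dendrite-only gene in none. Differences between these sets below are therefore descriptions and no independent test. Of the 583 dendrite-only genes, 472 were also in the BAT list (81%, 77.6 to 83.9) and 282 in the cardiomyocyte list (48.4%, 44.3 to 52.4). Of the 2180 other genes of both dendrite lists, 92.9% (91.8 to 93.9) were in the BAT list and 72.8% (70.9 to 74.7) in the cardiomyocyte list. The shares of the dendrite-only genes were lower, with a difference of -12 points for BAT (interval -15.5 to -8.78) and of -24.5 points for cardiomyocytes (-28.9 to -20). Genes of all 4 neuronal lists reached 96.2% in BAT and 80% in cardiomyocytes. The soma-only genes stood at 75.5% (66.6 to 82.5) and 49.1% (39.9 to 58.3), and the dendrite-only genes differed from them by 5.51 points (-2.35 to 14.8) and -0.72 points (-10.8 to 9.29), both within counting error. At least 1 of the non-neuronal lists held 511 of the 583 genes (87.7%), against 95.9% of the other genes, 82.7% of the soma-only genes and 92.3% of the 3827 genes with a neuronal list in both species.

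The difference from the other genes was in the same direction at each level of reads. Among genes with 1 to 3 reads in the thinner dendrite list, 80.1% of the dendrite-only and 87.9% of the other genes were in the BAT list (difference -7.76, -15 to -1.27), and among those with 64 or more reads 84.4% and 96.4% (-12, -20.9 to -5.68). For cardiomyocytes the differences over the 4 read levels ran from -21.3 to -26.9 points, and every interval lay below 0. So it was within 3 equal classes of gene span: -13, -8.13 and -11.5 points for BAT from the shortest class to the longest, and -24.7, -24 and -22.7 points for cardiomyocytes, again with every interval below 0.

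**Figure D4:**
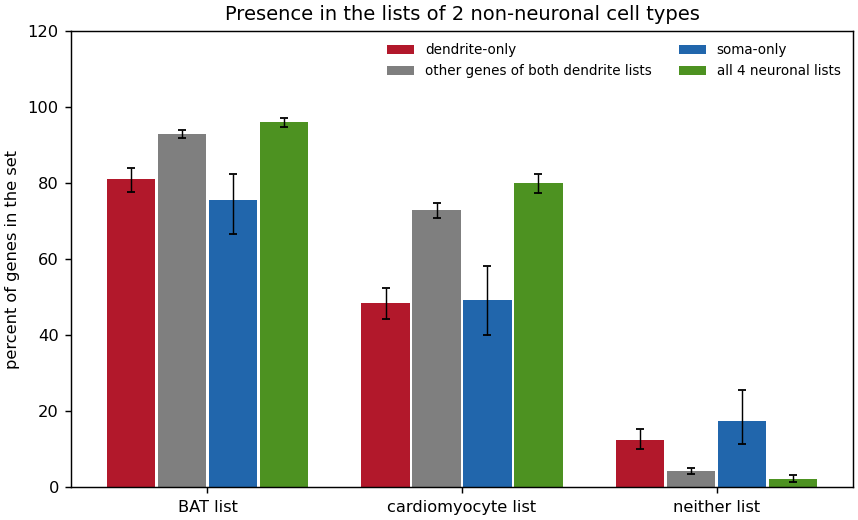
Percent of genes (vertical axis) of 4 gene sets that were also in the BAT list, in the cardiomyocyte list or in neither, with 95% Wilson intervals. The dendrite-only genes stand at 81%, 48.4% and 12.3%, close to the soma-only genes and away from the other genes of both dendrite lists at 92.9%, 72.8% and 4.13%.

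Where a dendrite-only gene was in the BAT list, the mouse intron was often the same. Of the 472 genes, 330 (69.9%, 65.6 to 73.9) shared an intron of the same transcript with the mouse dendrite list, against 82.6% of the other genes, a difference of -12.7 points (-17.3 to -8.39). With 1 listed dendrite intron the shares were 145 of 242 (59.9%) and 450 of 665 (67.7%), a difference of -7.75 points (-14.9 to -0.753). For the cardiomyocyte list 155 of 282 genes shared an intron (55%, 49.1 to 60.7), against 72.1% of the other genes, and with 1 dendrite intron the difference of -8.52 points had an interval that included 0 (-17.5 to 0.561). Stard13 reached 12338 reads in the BAT list and was not in the cardiomyocyte list. Ube2d2, a ubiquitin-conjugating enzyme with 1457 reads in mouse and 302 in rat dendrites, had 18401 reads in BAT and 3284 in cardiomyocytes, and Ccdc80 had 54 and 537 reads in dendrites and 13053 in cardiomyocytes. The BAT and cardiomyocyte lists were read more deeply in sum than the neuronal lists, and read numbers are not scaled between lists.

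Neither non-neuronal list held 72 of the dendrite-only genes (12.3%, 9.92 to 15.3), against 4.13% of the other genes of both dendrite lists. The best-read of them, picked by the thinner dendrite list after their values were seen, were Rad18, Eepd1, a protein with an endonuclease-like domain (174 and 249 reads), Tmem178, Casp8ap2, a nuclear body protein needed for histone mRNA processing (89 and 374), and Sdr16c6, a short-chain dehydrogenase (82 and 130). Fxr2 and Prkaa2, a catalytic subunit of the AMP-activated kinase (26 and 186), were among the 72 as well.

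Dendrite-only genes were short. Mouse gene models were matched for 578 of the 583 genes (99.1%), with a median span of 34498 nt (quartiles 19036 and 60942) and 10 introns. The other genes of both dendrite lists had a median span of 56132 nt and 13 introns, and the soma-only genes 19026 nt and 10 introns. The best-read intron was 3332 nt long in the median dendrite-only gene, 4045 nt in the other genes and 2065 nt in the soma-only genes. In the shortest of these classes (up to 31942 nt) 29.3% of the genes of both dendrite lists were dendrite-only, in the middle class 23.3% and in the longest (over 80151 nt) 10.9%. Gene span also moved with the function groups: the median was 327200 nt for scaffolds and 176560 nt for adhesion genes, 49058 nt for DNA repair and replication, and 10860 nt for ribosomal proteins and translation factors. Its part in the group shares was not tested.

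Contigs were checked against annotated exons of any mouse transcript. In the dendrite-only genes 57 of 1212 contigs overlapped one (4.7%, 3.65 to 6.04), near the 5.21% of the other genes, and for 22 genes every mouse contig did, Lrrc41 and Aldh16a1 among the named ones. The share among the other genes of the mouse soma list was not counted, and in the soma-only genes 26 of 158 contigs overlapped an exon (16.5%, 11.5 to 23). In 15 soma-only genes every contig overlapped one. With such contigs left out of both mouse neuronal lists, an alternative chosen after the data were seen, 590 genes were dendrite-only, 561 of them as before, and 100 were soma-only. The sequencing did not keep the strand, so reads of an intron and of an antisense transcript cannot be told apart.

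The limits of the rule run through thin counts. Just inside it, Aldh16a1, Btrc, Cd83 and Grp had 2 reads in each dendrite list, and 171 of the 583 genes had at most 3 reads in at least 1 of them. Just outside it, Arhgef12 had 1016 reads in mouse and 1831 in rat dendrites and was left out for 2 reads in mouse somas, as was Pdpk1 (558 and 1862, 2 soma reads). Commd10 (3534 and 661) was left out for 2 reads in rat somas, and Ift80 (491 and 515) for 2 reads in mouse somas. In all, 161 genes of both dendrite lists had at most 3 soma reads. When every list was held to introns of at least 16 reads, 404 genes were dendrite-only and 212 of them belonged to the 583, that is 36.4% of the 583. When introns of at least 32 reads were asked of the dendrite lists alone, 138 of the 583 remained and 428 genes were soma-only, since genes thinly read in dendrites then counted as absent there. With contigs of at most 400 nt in the lists other than dendrites, the limit that the study set for whole cells, 854 genes were dendrite-only, including all 583, and 61 were soma-only.

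**Figure D5:**
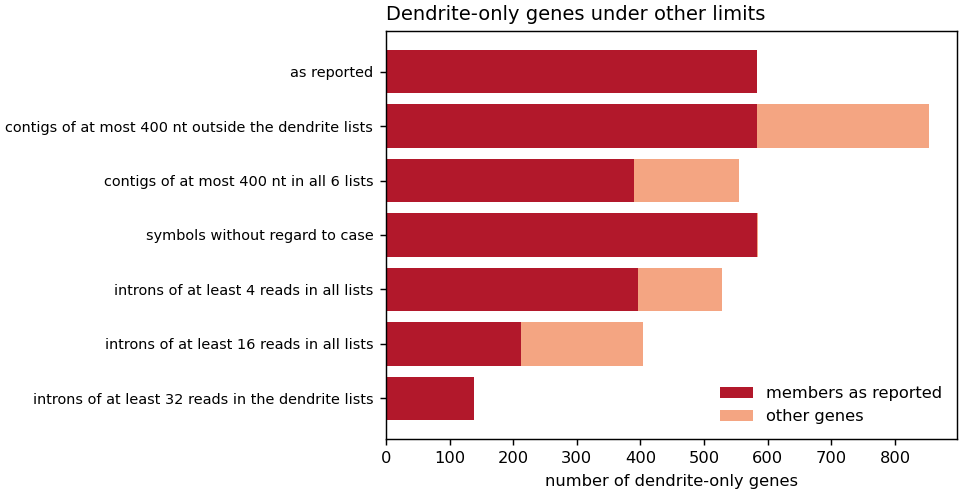
Number of dendrite-only genes (horizontal axis) as reported and under 6 other limits on contig length, symbol case and reads; dark red marks genes of the 583 and light red other genes. The number stays between 404 and 854 except under the minimum of 32 reads for the dendrite lists, where it is 138, and at 16 reads in all lists 212 of the 583 are left.

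Markers of cell types were looked up because dendrites in culture lie among other cells. None of the listed markers for neurons, astrocytes, oligodendrocytes, microglia or endothelium was dendrite-only, and the astrocyte glutamate transporter Slc1a2 was soma-only. The microglial list held 9 genes, and other genes known from macrophages and microglia, picked out after their values were seen, were dendrite-only. Among them were Emr1, the macrophage surface antigen F4/80 (228 reads in mouse and 56 in rat), Cybb, a subunit of the phagocyte oxidase (1990 and 36), Sfpi1, the myeloid transcription factor PU.1 (572 and 6), Btk, a kinase of B cells and myeloid cells (397 and 48), Trem1, a receptor of myeloid cells (148 and 14), and Vav1, an exchange factor of blood cells (32 and 290). Genes of this kind that were in a soma list as well were not counted. Of 12 neuronal markers 4 were in the mouse dendrite list, 5 in the mouse soma list, 2 in the rat dendrite list and 4 in the rat soma list, and Map2, Rbfox3, Tubb3 and Syn1 were in neither dendrite list. Summed over their markers, astrocytes had 2983 reads in mouse dendrites and 264 in mouse somas (78 and 252 in rat), microglia 1055 and 311 (701 and 125 in rat), endothelium 1990 and 1360 (258 and 6 in rat) and oligodendrocytes 72 and 104 (139 and 60 in rat). Neuronal markers had 706 reads in mouse dendrites and 1944 in mouse somas, and 61 and 976 in rat. Listed markers were 4 of 10 for astrocytes, 3 of 9 for microglia and 5 of 8 for endothelium in mouse dendrites, and 3, 2 and 4 of them in mouse somas. Markers of cell types that are not brain cells had more reads in the mouse dendrite list than in the mouse soma list. Brown fat markers (5 of 8 listed, 1 in somas) summed to 681 reads in mouse dendrites and 2 in mouse somas (95 and 15 in rat). Cardiomyocyte markers (5 of 9 listed, 2 in somas) summed to 1597 and 16 (51 and 125 in rat). None of these sums is scaled, and the mouse dendrite list held 3086576 reads in all against 1855447 in the mouse soma list. Of the brown fat markers Ucp1, the uncoupling protein of thermogenesis, was a dendrite-only gene with 69 reads in mouse and 95 in rat dendrites, beside 6596 in BAT. The part of other cells in the membership was not tested.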

How the data were processed

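Dendrites, somas, BAT cells and cardiomyocytes had been sequenced as amplified RNA in 26 libraries. The authors aligned the reads to mm9 or rn4 with the RUM pipeline, filtered out introns that held a predicted gene or a known poly(A) site, and joined uniquely mapped intronic reads within 500 nt into contigs, in 1 list for each of 6 conditions. The deposited values are raw read counts of the intron, repeated on each contig, with libraries pooled and no normalization. Depth per library is not in the lists, whose summed counts ran from 1007530 (rat dendrites) to 17858440 (BAT) reads, and precision is limited to counting error over genes.

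Counts were taken once per transcript and intron and summed for the transcript with the most reads. Symbols were compared as sets, shares given Wilson and differences Newcombe intervals, and no p-value was computed. Mouse transcripts were matched to GENCODE vM1 models in NCBIM37, and rat gene models were not used here. Python 3.11.15, pandas 2.3.3, scipy 1.17.1, pysam 0.24.0 and matplotlib 3.10.9 were used, and set and interval code was tested on simulated data. Members and gene lists were chosen with earlier results of these data known. Named were the 12 genes with most reads in the thinner dendrite list, 8 with most introns in both species, 8 with most reads in an intron of the same number, 5 soma-only genes, up to 3 per gene group (all for dendritic mRNAs, receptors, repressors and scaffolds) and genes at the limits. Genes named beyond this rule (Fancc, Slc1a2, Ucp1, the macrophage, immune and matrix genes and those listed in neither non-neuronal list) were chosen after their values were seen. Alternatives changed contig length, symbol case, read minimums, reference sets and tract settings.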

Additional observations from a re-analysis of the deposited data

How the results depend on the processing

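The lower presence of dendrite-only genes in the non-neuronal lists kept its direction, with intervals below 0, under all 6 alternatives for contig length, symbol case and reads: the differences ran from -9.18 to -18.4 points for BAT and from -18.8 to -28.4 points for cardiomyocytes. This comparison was added to the alternatives after the data were seen. Since the sets were chosen by presence in whole-cell lists of neurons, it is no independent test. The shares themselves moved. With contigs of at most 400 nt outside the dendrite lists, soma-only genes fell in number to 61, dendrite-only genes were in the BAT list in 71.9% and in the cardiomyocyte list in 43.1%, and soma-only genes in the latter in 37.7%. With that limit in all 6 lists the shares were 71.9%, 42.9% and 36.8%, and the share with an intron of the same number was 30.6%. With introns of at least 4 reads the latter was 31.1%, and with at least 16 reads it was 25% and the BAT share 73.8%. With at least 32 reads in the dendrite lists, 138 dendrite-only and 428 soma-only genes were counted, with 86.2% and 84.3% in BAT, 62.1% of soma-only genes in the cardiomyocyte list and 23.9% of dendrite-only genes with an intron of the same number. The genes given by the list sizes passed the counted number, 583, at 770.1 and 655.0 under the wider references, and for the soma-only genes, 110, at 121.8 over any neuronal list. The share of contigs with an adenine run was 12.8% for runs of 8, 7.1% for runs of 12 and 6.85% within 100 nt, beside 12.3%, 5.49% and 5.79% for the other genes of both dendrite lists. The difference was 1.6 points for runs of 12 (0.197 to 3.25), and its interval included 0 for runs of 8 and within 100 and 500 nt. In the remaining 50 of 74 values under alternatives, counts stayed within 1.5 times, shares within their interval and differences on the same side of 0, with intervals that included or left out 0 as before. Causes of these shifts were not tested beyond the alternatives' own construction, which removes genes from lists. No paired analysis was possible because each list pools its libraries, and for the same reason no single library could be omitted. Genes with 1 to 3 reads are at the limit of detection, so absence from a soma list is not absence from the soma.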
